A study of Homo sapiens with 4 samples.

Results

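The RNA of 10 cytokine genes of natural killer (NK) cells was followed through the RNA-seq libraries: IFNG, TNF, LTA, LTB, CSF2, IL32, LIF, OSM, IL10 and TGFB1. They were named as a list, matched by symbol in the deposited FPKM table and by Ensembl identifier in the count table, and make up 10 of 61860 identifiers. All 10 were found, and 8 passed the filter on low counts; CSF2 and LIF did not. The cells were NK-92, a human NK cell line grown with interleukin 2 (IL-2) at 20 ng/ml. Wild-type cells (WT) were set against ΔOGT-ISS cells. ΔOGT-ISS lacks, after CRISPR-Cas9 editing, a silencer of splicing within an OGT intron; OGT encodes the enzyme that puts O-GlcNAc sugars on intracellular proteins, and the deletion was made to sustain its expression. Each line gave 1 library with IL-2 at 48 h and 1 with IL-2 at 24 h before RNA extraction, so 4 libraries fill 4 combinations. IL-2 appears in the titles of the 24 h libraries alone, while the treatment labels give it to all 4; the treatment labels were followed. Only 1 edited line was studied, and the labels do not say whether it was 1 clone. Since separate cultures are not mentioned, the spread behind each p-value is that of these 4 libraries and may be technical.

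The libraries held 10889986 to 11305599 counts at 48 h and 24809269 to 28576566 at 24 h. All 10 NK markers were detected, NCAM1 at 263 to 474 CPM and KLRD1 at 72.9 to 99.1 CPM (library-scaled read counts, with TMM factors), and their sum was 2220 to 3970 CPM. CD7 (0.613 to 11.4 CPM), FCER1G (0.586 to 5.39) and TYROBP (1.31 to 26.9) were the lowest. TYROBP, a signalling adaptor, was lower in ΔOGT-ISS (log2 -2.74, edgeR adjusted p = 0.0242), as was GNLY with offsets for GC content and length (-1.53, 1.89e-05; -1.50, 0.287 without them). At 24 h NCAM1, CD7 and TYROBP were higher and FCER1G lower, and the part of these markers in the cytokine values was not tested. Of 9 T cell markers, CD3E (187 to 316 CPM), TRBC1 and TRAC were above 15 CPM and the other 6 were at most 1.69 CPM. CD14, LYZ, MS4A1 and HBB, which define myeloid, B and erythroid cells, were at most 0.263 CPM in any library. OGT itself, counted over the whole gene, had a log2 difference of -0.20 between ΔOGT-ISS and WT (SE 0.16, edgeR adjusted p = 0.862); gene counts do not resolve the edited intron. The summed level of the 8 myeloid markers was 611 (ΔOGT-ISS) and 827 CPM (WT) at 48 h, against 47.7 and 316 CPM at 24 h. S100A9 made up most of that sum, so it moved with IL-2 time, and its part in the cytokine values was not tested. PAX5, a B cell marker, was at 52.0 to 80.8 CPM, and the 5 fibroblast markers, mostly PDGFRB, summed to 234 to 621 CPM.

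Interferon gamma, TNF and the lymphotoxins are the effector cytokines with which NK cells activate macrophages and induce death or inflammatory signalling in neighbouring cells. IL-10 and TGF-beta restrain such responses, while oncostatin M and LIF signal through receptors that contain gp130. Expression of these genes in NK cells follows IL-2, IL-12 and IL-18 through STAT and NF-kB factors and receptor signals through NFAT and AP-1, and many of the transcripts are short-lived.

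LTA (ENSG00000226979), TNF (ENSG00000232810) and LTB (ENSG00000227507) are neighbours in the major histocompatibility complex. On GRCh38 they lie on chromosome 6 at 31572054 to 31574324, 31575567 to 31578336 and 31580525 to 31582522. Only 1242 bp separate LTA from TNF and 2188 bp separate TNF from LTB, which is read from the other strand. LIF (ENSG00000128342, chromosome 22, 30240447 to 30246851) and OSM (ENSG00000099985, 30262829 to 30266840) form the other neighbouring pair, 15977 bp apart. IFNG (ENSG00000111537) is on chromosome 12 at 68154768 to 68159747, IL10 (ENSG00000136634) on chromosome 1 at 206767602 to 206772494, and IL32 (ENSG00000008517) on chromosome 16 at 3065297 to 3082192. CSF2 (ENSG00000164400) is on chromosome 5 at 132073790 to 132076170 and TGFB1 (ENSG00000105329) on chromosome 19 at 41301587 to 41353911. All 10 are protein-coding. TGFB1 exons overlap exons of HNRNPUL1 on the opposite strand and LIF exons overlap antisense genes, so with the strand setting not given in the sources used here their counts are uncertain.

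Promoters are shown for the members whose RNA level fell at 24 h (IFNG and IL10) and for the clustered LTA, TNF and LTB, which rose, LTB only without offsets for GC content; IL32 fell only with them and is not shown. Each sequence is the 250 bases before the RefSeq start of the gene (GRCh38.p14), 5′ to 3′ on the gene's strand. By the gene positions given above, LTA, LTB and IL32 begin further upstream, and IFNG by a few bases. Part of each of those windows therefore lies within the gene. The windows are chr12:68159741-68159990 (minus strand) for IFNG and chr1:206772495-206772744 (minus) for IL10. They are chr6:31571849-31572098 (plus) for LTA, chr6:31575315-31575564 (plus) for TNF and chr6:31582426-31582675 (minus) for LTB. Capitals mark TTCNNNGAA, the core of a STAT-binding GAS element, and a form of the NF-kB motif (GGG, any 2 bases, TT, any base, CC), read on both strands.
IFNG: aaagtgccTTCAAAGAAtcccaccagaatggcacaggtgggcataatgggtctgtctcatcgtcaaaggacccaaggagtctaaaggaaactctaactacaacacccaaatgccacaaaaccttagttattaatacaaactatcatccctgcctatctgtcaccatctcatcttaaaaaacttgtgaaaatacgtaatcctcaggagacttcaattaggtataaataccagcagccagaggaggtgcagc
IL10: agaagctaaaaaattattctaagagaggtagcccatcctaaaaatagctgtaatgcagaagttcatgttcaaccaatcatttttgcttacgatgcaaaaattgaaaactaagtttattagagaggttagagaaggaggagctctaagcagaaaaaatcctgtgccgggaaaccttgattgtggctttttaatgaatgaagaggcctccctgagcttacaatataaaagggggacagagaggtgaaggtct
LTA: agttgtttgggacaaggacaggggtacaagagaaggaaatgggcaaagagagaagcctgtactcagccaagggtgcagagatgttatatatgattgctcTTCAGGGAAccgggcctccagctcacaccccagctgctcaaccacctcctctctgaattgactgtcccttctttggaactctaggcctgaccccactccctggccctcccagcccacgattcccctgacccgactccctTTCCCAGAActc
TNF: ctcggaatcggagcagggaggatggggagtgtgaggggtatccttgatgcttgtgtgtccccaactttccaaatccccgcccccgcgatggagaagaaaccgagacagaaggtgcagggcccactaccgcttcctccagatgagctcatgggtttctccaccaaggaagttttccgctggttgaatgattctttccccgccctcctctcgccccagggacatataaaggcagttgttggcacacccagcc
LTB: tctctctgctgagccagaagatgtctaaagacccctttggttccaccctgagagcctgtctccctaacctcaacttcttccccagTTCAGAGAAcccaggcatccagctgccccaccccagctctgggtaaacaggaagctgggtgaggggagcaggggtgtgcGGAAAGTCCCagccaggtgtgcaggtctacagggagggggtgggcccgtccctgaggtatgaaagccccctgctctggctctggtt
Of the 8 members with a RefSeq promoter in the table used, 4 held the GAS core (IFNG, LTA, LTB and CSF2), against 6.78% of 27305 promoters of the same length. The NF-kB form was in LTB and IL32, against 5.08% of promoters. In both it overlaps the NFAT core GGAAA, as do the GAS core of CSF2 and the one nearest the start of LTA. By the gene positions given above, both NF-kB matches and that LTA core lie within the gene. The AP-1 motif TGANTCA was in 0 of the 8, against 6.60% of promoters. GGAAA, a short motif found in 56.0% of promoters, was in all 8. These matches describe letters in the windows and were not tested. GC content of the windows was 42.4% for IFNG and 38.4% for IL10, against 55.2% for LTA, 57.2% for TNF, 60.0% for LTB and 76.8% for TGFB1. It was 60.8% for IL32, which did not rise, and 54.0% for CSF2, which was not tested.

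Levels per transcript length separated the members over several orders of magnitude. In FPKM, the deposited values scaled by transcript length and library total, IL32 stood highest and LTB came 2nd in each of the 4 libraries. LTA was 3rd except in ΔOGT-ISS at 48 h, where IFNG exceeded it. IL32, an inflammatory cytokine of lymphocytes, was at 925 FPKM (WT) and 629 FPKM (ΔOGT-ISS) at 48 h, and at 741 and 628 FPKM at 24 h. LTB, the membrane-bound lymphotoxin subunit, was at 199 FPKM (WT) and 109 FPKM (ΔOGT-ISS) at 48 h, against 292 and 286 FPKM at 24 h. LTA, the secreted subunit, ranged from 46.1 to 152 FPKM, a range that overlaps that of LTB. The next ranks changed with time. IFNG was 3rd and 4th of the 10 members in the 48 h libraries (52.4 FPKM in ΔOGT-ISS, 59.7 in WT) and 6th in both 24 h libraries (13.1 and 22.2). TNF was 8th and 7th at 48 h (5.01 and 8.27 FPKM) and 5th at 24 h (18.3 and 31.8).

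Of the other members, TGFB1 ranged from 13.6 to 66.1 FPKM, IL10 from 7.65 to 25.7 and OSM from 6.03 to 16.0. These ranges overlap one another and those of IFNG and TNF, so the middle of the order is not separated. CSF2, which encodes GM-CSF, had 8 counts in ΔOGT-ISS and 0 in WT at 48 h, and 0 and 2 counts at 24 h. LIF, a gp130 cytokine, had 6 counts and 1 count at 48 h and 0 in both lines at 24 h. The limit that goes with 0 is 3 counts, or 0.103 to 0.284 CPM depending on the library, for counting error only.

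**Figure D1:**
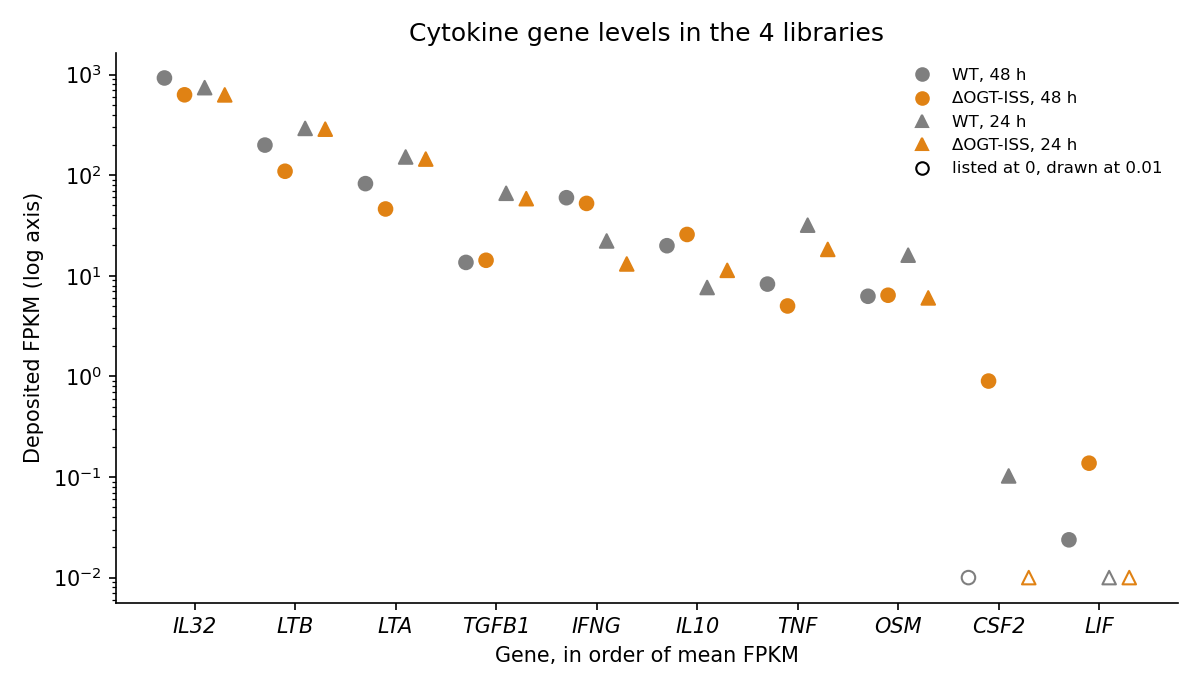
Deposited FPKM (log axis) of the 10 cytokine genes in each library, with 1 point per library and no error since each combination of line and time has 1 library. IL32 and LTB are the highest in all 4 libraries, while CSF2 and LIF stay under 1 FPKM and open symbols mark values listed at 0.

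Between the lines, no cytokine gene passed the test. In the edgeR quasi-likelihood fit with terms for line and time over all 4 libraries, 0 of 8 members had an adjusted p under 0.05, where 0.463% of 17492 genes did (0.149% higher, 0.314% lower). DESeq2 called 0 members and 2.20% of genes, and limma on log2 FPKM 0 members and 0% of genes. With 0 members called, the share of genes was 0.880%, 0.549% and 0.515% under 3 other scalings, 1.74% with a filter at a mean of 5 CPM and 2.83% (431 genes) with the 24 h libraries thinned in 1 random draw, where 5 other draws called 6 to 249 genes. At an unadjusted p under 0.05 edgeR had 4 of 8 (TNF, IFNG, IL32 and LTA), where 9.08% of all genes lay. The members' median log2 difference, ΔOGT-ISS minus WT, was -0.49, against 0.02 over all genes. In CPM, the genes IFNG, TNF, LTA, LTB, IL32 and OSM were lower in ΔOGT-ISS than in WT at both times, 6 of 8 against 26.9% of all genes. The place of OSM depends on the scaling, since its FPKM at 48 h was 6.41 in ΔOGT-ISS and 6.26 in WT. In bulk RNA, fewer cells expressing a gene and less RNA per cell cannot be told apart.

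TNF, the trimeric ligand of the TNF receptors, had the smallest p. Its level was 14.3 CPM (WT) and 8.33 CPM (ΔOGT-ISS) at 48 h, and 53.8 and 30.2 CPM at 24 h. ΔOGT-ISS was thus lower within each time, although the 24 h value of ΔOGT-ISS exceeded the 48 h value of WT. The ratio of ΔOGT-ISS to WT was 0.583 at 48 h (95% counting interval 0.446 to 0.758) and 0.561 at 24 h (0.515 to 0.612). Over both times the log2 difference was -0.81 (SE 0.20, edgeR adjusted p = 0.165). It passed in 2 of 10 alternatives with the same model and libraries, with offsets for GC content and length (edgeR adjusted p = 0.0477, where 3.02% of genes passed) and without the filter on low counts (0.0381, where 1.25% passed). Over those 10 the adjusted p ran from 0.0381 to 0.344.

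IFNG, which encodes the macrophage-activating interferon gamma, was at 74.5 CPM (WT) and 62.8 CPM (ΔOGT-ISS) at 48 h, and at 27.1 and 15.6 CPM at 24 h. ΔOGT-ISS held 0.844 of the WT level (0.762 to 0.935) at 48 h, and 0.578 of it (0.511 to 0.652) at 24 h. The log2 difference was -0.52 (SE 0.19, edgeR adjusted p = 0.447). The wider gap at 24 h rests on 1 library per line and was not tested.

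The lymphotoxins showed their gap at 48 h. LTA was at 120 CPM (WT) and 64.7 CPM (ΔOGT-ISS) at 48 h, and at 216 and 202 CPM at 24 h. ΔOGT-ISS held 0.538 of the WT level (0.491 to 0.590) at 48 h, against 0.933 (0.898 to 0.968) at 24 h. LTB was at 183 and 96.8 CPM at 48 h and at 262 and 252 CPM at 24 h, with ratios of 0.528 (0.490 to 0.569) and 0.961 (0.929 to 0.994). The WT 48 h level of both genes lay between the ΔOGT-ISS levels at the 2 times, so the lines overlapped. The log2 differences were -0.49 for LTA (SE 0.21, edgeR adjusted p = 0.546) and -0.48 for LTB (SE 0.22, edgeR adjusted p = 0.586). TNF, which lies between them, kept about the same ratio at both times.

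In CPM, IL32 and OSM were the members whose lines did not overlap, both with ΔOGT-ISS below, 2 of 8 against 10.1% of all genes. In FPKM the lines overlapped for OSM, with 6.41 in ΔOGT-ISS and 6.26 in WT at 48 h. IL32 was at 779 and 611 CPM in WT (48 h and 24 h) and at 510 and 506 CPM in ΔOGT-ISS. Its ratios were 0.654 (0.632 to 0.677) and 0.829 (0.810 to 0.848), and the lines differed by log2 -0.44 (SE 0.17, edgeR adjusted p = 0.469). OSM, the gp130 cytokine oncostatin M, was at 12.0 CPM (WT) and 11.8 CPM (ΔOGT-ISS) at 48 h, which is within counting error (ratio 0.985, 0.767 to 1.26). At 24 h it was at 30.1 CPM in WT and 11.1 in ΔOGT-ISS, a ratio of 0.368 (0.322 to 0.420). One library, WT at 24 h, thus stood apart from the other 3, and the log2 difference was -0.77 (SE 0.35, edgeR adjusted p = 0.576).

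Neither regulatory cytokine passed. IL10, the inhibitory cytokine, was higher in ΔOGT-ISS at both times, at 41.5 against 33.4 CPM at 48 h and 18.2 against 12.5 CPM at 24 h. The ratios were 1.24 (1.08 to 1.43) and 1.45 (1.26 to 1.67), and the log2 difference was 0.42 (SE 0.19, edgeR adjusted p = 0.592). It was the 1 member of the 8 above WT at both times, where 29.4% of all genes were. TGFB1, the latent regulatory cytokine, was at 39.3 against 38.9 CPM at 48 h and 160 against 185 CPM at 24 h. On the log2 scale the lines differed by -0.10 (SE 0.16, edgeR adjusted p = 0.945). CSF2 at 48 h was at least 2.47-fold higher in ΔOGT-ISS against the limit of 3 counts. The LIF ratio there was 5.56 with an interval from 0.674 to 256. At 48 h the ΔOGT-ISS library held 2400 genes at 1 count and 2466 at 2, against 1512 and 1622 in WT. Low counts were thus more frequent in that ΔOGT-ISS library, and their part in the CSF2 and LIF ratios was not tested.

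**Figure D2:**
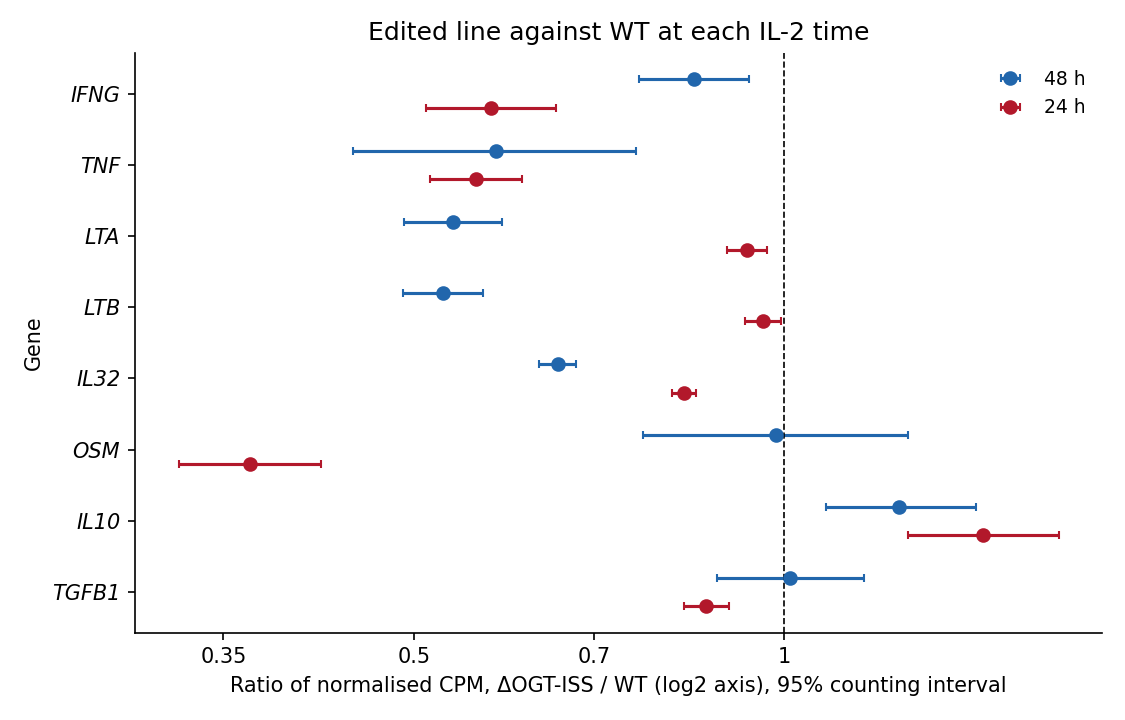
Ratio of normalised CPM, ΔOGT-ISS over WT (log2 axis), at 48 h (blue) and 24 h (red) for the 8 genes tested, with 95% intervals that cover counting error only. TNF sits near 0.57 at both times, LTA and LTB move from about 0.53 to near 1, and IL10 lies above 1.

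**Figure D3:**
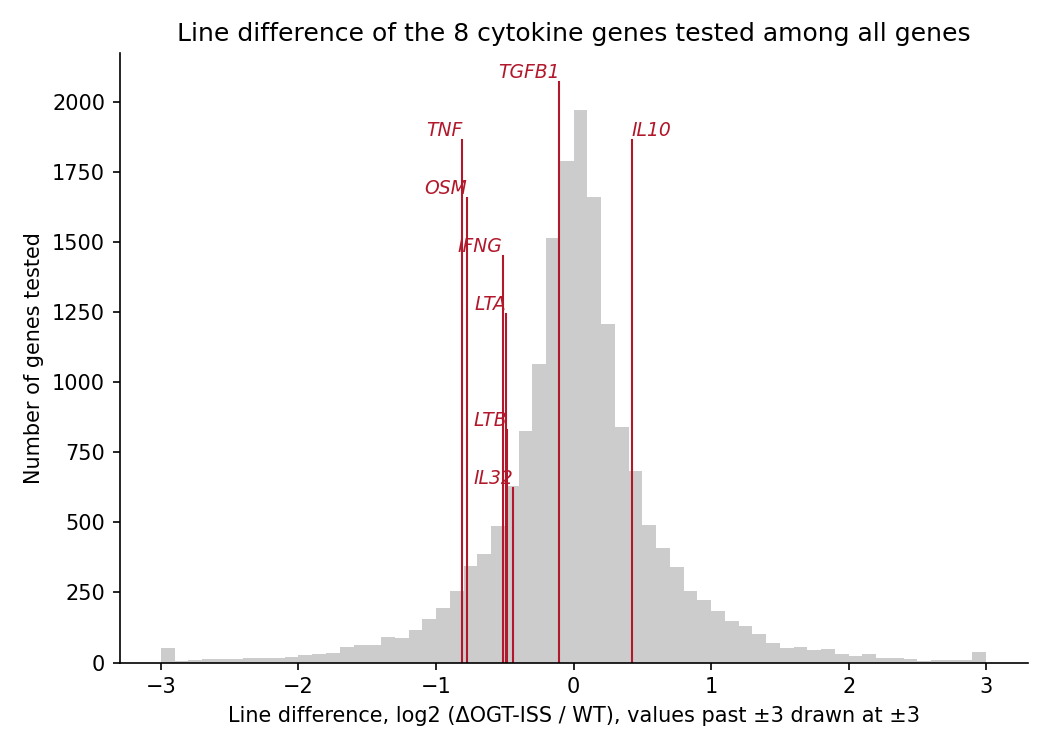
Number of genes by log2 difference between the lines (grey, 17492 genes) with the 8 cytokine genes as red lines whose height has no meaning. The 6 members lowest on the axis lie between -0.81 and -0.44, TGFB1 at -0.10 and IL10 at 0.42.

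Between the IL-2 times the cytokine genes split. The replicate number listed for each library runs with IL-2 time. Time and library set therefore cannot be told apart in any comparison of the 24 h with the 48 h libraries. At 24 h against 48 h TGFB1, TNF, LTA and LTB rose, IFNG and IL10 fell, and IL32 and OSM did not pass. In edgeR 6 of 8 members passed, also at an unadjusted p under 0.05, where 25.9% and 38.8% of all genes did, 4 higher against 15.0% and 2 lower against 10.9%. The same 6 had non-overlapping times, 4 above and 2 below, against 34.8% and 30.1% of all genes. The 24 h libraries were also more than 2 times as deep. With them thinned to the 48 h depth 6 of 8 members passed (34.7% of genes), as they did with 3 other scalings (27.2%, 26.8% and 26.4%), the filter at 5 CPM (44.3%), DESeq2 (22.5%) and limma (26.2% and 24.2%). Without the filter 7 passed (11.2%), OSM among them, and without the term for line 5 passed (18.8%), LTB having lost its call (edgeR adjusted p = 0.0991).

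TGFB1 rose 4.40-fold (log2 2.14, SE 0.17, edgeR adjusted p = 0.00039). Both 24 h values (160 and 185 CPM) stood far above both 48 h values (39.3 and 38.9 CPM). The ratio was 4.76 in WT (4.30 to 5.28) and 4.07 in ΔOGT-ISS (3.69 to 4.50). HNRNPUL1, whose exons overlap those of TGFB1 on the other strand, went from 2877 and 2544 counts (ΔOGT-ISS, WT) to 17087 and 14112, and its part in the TGFB1 counts was not tested. TNF rose 3.70-fold (log2 1.89, SE 0.20, edgeR adjusted p = 0.000986), by 3.77 times in WT (3.18 to 4.49) and 3.63 times in ΔOGT-ISS (2.93 to 4.53). LTA rose 2.36-fold (log2 1.24, SE 0.21, edgeR adjusted p = 0.00532), with a ratio of 1.80 in WT (1.69 to 1.91) and 3.12 in ΔOGT-ISS (2.89 to 3.37). LTB rose 1.93-fold (log2 0.95, SE 0.22, edgeR adjusted p = 0.0174), with ratios of 1.43 (1.36 to 1.51) and 2.60 (2.44 to 2.78). In both lymphotoxin genes the larger ratio was in ΔOGT-ISS, which had the lower 48 h level. That difference was not tested.

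IFNG went the other way, with a drop of log2 -1.73 (SE 0.20, edgeR adjusted p = 0.00121). The 24 h values, 27.1 CPM in WT and 15.6 in ΔOGT-ISS, lay below both 48 h values, with ratios of 0.363 (0.327 to 0.403) and 0.249 (0.221 to 0.280). IL10 also fell (log2 -1.30, SE 0.20, edgeR adjusted p = 0.00327), with ratios of 0.376 in WT (0.322 to 0.439) and 0.438 in ΔOGT-ISS (0.386 to 0.496). IL32 had a log2 difference of -0.18 (SE 0.17, edgeR adjusted p = 0.478). OSM stood at 0.62 (SE 0.35, edgeR adjusted p = 0.224), from a ratio of 2.51 in WT (2.07 to 3.05) and 0.936 in ΔOGT-ISS (0.763 to 1.15). LIF in ΔOGT-ISS, with 6 and 0 counts, was at least 5.08-fold lower at 24 h, and CSF2, with 8 and 0, at least 6.78-fold lower. At 48 h the libraries held fewer genes at 1 count than at 2 (0.932 and 0.973 to 1, against 1.70 and 1.72 at 24 h), so these bounds rest on low counts that behave unlike those at 24 h.

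**Figure D4:**
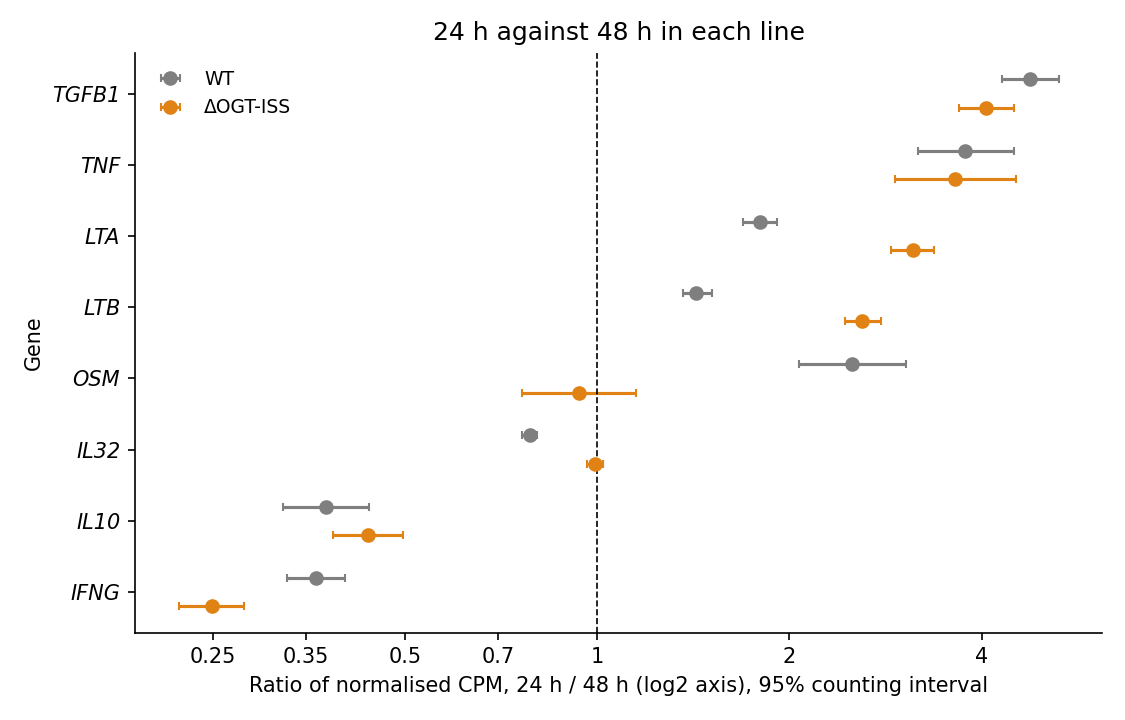
Ratio of normalised CPM, 24 h over 48 h (log2 axis), in WT (grey) and ΔOGT-ISS (orange) for the 8 genes tested, with 95% intervals that cover counting error only. TGFB1, TNF, LTA and LTB lie above 1 and IL10 and IFNG below 1 in both lines, while OSM is above 1 in WT only.

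The time difference moved with the GC content of transcripts. Over 16751 genes with GC and length values, the correlation across genes of the log2 time difference with GC content was 0.354 (Spearman 0.473). Genes are not independent replicates. Over all tested genes with a GC value, the median went from -0.40 in the 2717 genes up to 40% GC to 1.07 in the 2069 genes above 60%. The line difference showed no such slope, with medians from 0.00 to 0.04 over the same ranges. The members followed this order in part: IFNG transcripts are 36.0% GC and IL10 45.3%, against 54.3% for TNF, 56.5% for LTA, 63.4% for LTB and 63.5% for TGFB1. IL32 (58.7% GC) and OSM (59.5%) did not pass, at -0.18 and 0.62, where genes of 55 to 60% GC had a median of 0.72. With per-library offsets for GC content and length, 6 of 8 members passed, where 19.0% of genes did, but not the same 6. IFNG stood at -1.30 (edgeR adjusted p = 7.17e-06), IL10 at -1.10 (0.000305), TNF at 1.52 (1.17e-06), LTA at 0.74 (0.0185) and TGFB1 at 1.04 (0.000325). LTB lost its call and turned to -0.06 (edgeR adjusted p = 0.908), and IL32 gained one at -0.78 (0.0269). The rise of LTB therefore depends on how GC content is treated. The median over the 8 members went from 0.78 to -0.09, while the median over all genes was 0.07 in both fits.

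**Figure D5:**
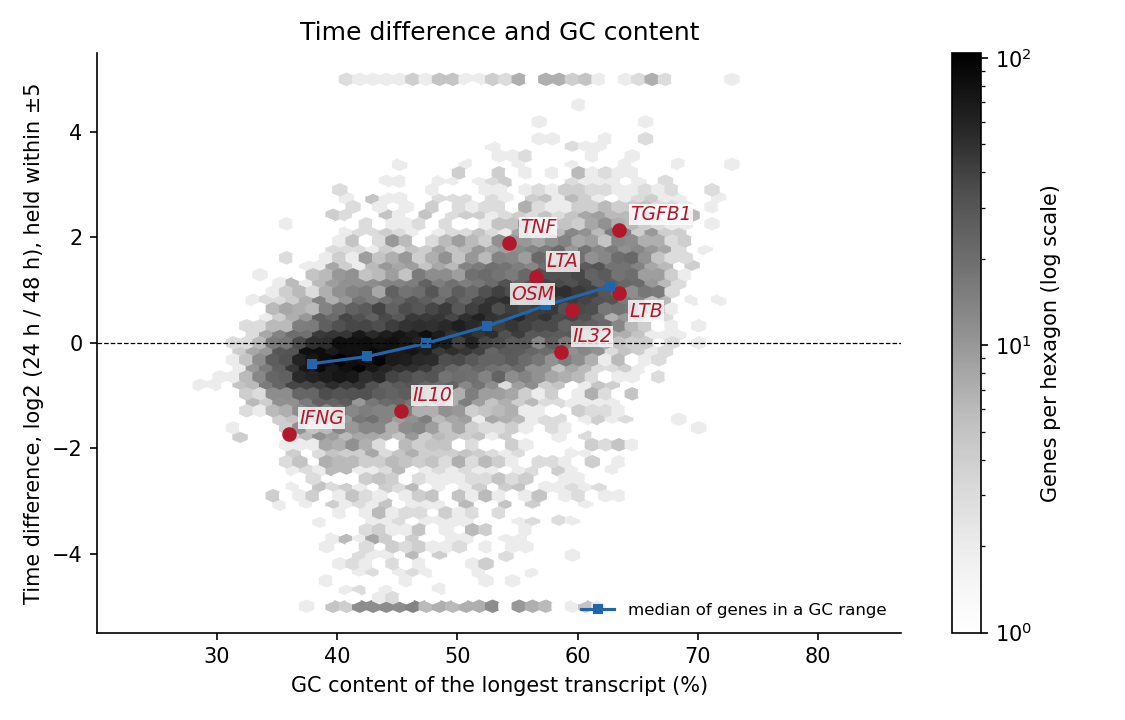
Log2 time difference (24 h over 48 h, values held within ±5) against GC content of the longest transcript for 16751 genes, as counts per hexagon on a log scale. The blue line joins medians of 6 GC ranges, from -0.40 to 1.07, over all tested genes with a GC value. Red points are the 8 cytokine genes. TNF, LTA and TGFB1 lie above the line, IFNG, IL10, IL32 and OSM below it, and LTB near its end.

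Leaving out 1 library at a time, in fits that then lack the term for line, the calls of IFNG and TGFB1 held in all 4 fits, which called 18.2% and 7.18% of genes without ΔOGT-ISS at 48 h and 24 h and 16.9% and 6.07% without WT at 48 h and 24 h. In each such fit 1 arm is a single library, which is assumed to vary like the pair it is compared with. Separate fits between the lines, without the term for time, called 0.0879% of genes without ΔOGT-ISS at 24 h, 0% without each other library, and 0 members. Without WT at 24 h, TNF (edgeR adjusted p = 0.0682), LTA (0.085), LTB (0.181) and IL10 (0.139) lost theirs. Without ΔOGT-ISS at 48 h, TNF (0.0566), LTB (0.107) and IL10 (0.0535) did. Without ΔOGT-ISS at 24 h, LTA (0.0638) and LTB (0.151) did, and OSM gained one (0.0455).

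Genes around the cytokines were read from lists of their receptors, processing factors, regulators and response genes. Between the lines, none of 14 tested receptor genes passed; the largest differences were in TGFBR3, a TGF-beta co-receptor, at -1.67 (SE 0.46, edgeR adjusted p = 0.230), and in CSF2RB, the shared beta chain of the GM-CSF receptor, at -0.74 (SE 0.17, 0.152). Of 8 genes for release and activation, FURIN, a protease that cleaves the TGF-beta precursor, was lower in ΔOGT-ISS (log2 -1.74, SE 0.22, edgeR adjusted p = 0.0266). It had 118 counts in ΔOGT-ISS against 433 in WT at 48 h and 319 against 769 at 24 h, so both times showed the difference. None of 9 mRNA decay factors, 22 transcription factors, 13 signal transducers, 11 IFNG response genes, 8 TNF response genes or 10 TGFB1 response genes passed between the lines. Their medians were 0.00, -0.13, 0.04, 0.24, -0.16 and -0.16. The largest differences reported from these 6 lists, in the same order, were RC3H2 (-0.52) and ZFP36L1 (0.25), NFATC1 (0.73) and BHLHE40 (-0.65), JAK2 (0.99), SOCS1 (-2.27), CXCL8 (-0.98) and TRAF1 (0.72), and LDLRAD4 (-0.83) and again BHLHE40. With the GC and length offsets TGFBR3 (edgeR adjusted p = 4.33e-06), JAK2 (0.0346), TRAF1 (0.0492), SOCS1 (0.0218) and LDLRAD4 (0.0128) also passed, with the same signs. Of all genes 0.463% passed between the lines without the offsets and 3.02% with them, and the lists were not tested against these shares.

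Of 7 response genes of IL10, LIF and OSM signalling 1 passed between the lines, where 0.463% of all genes did (0.314% lower). This was IL4R, the IL-4 receptor chain, which was lower in ΔOGT-ISS (log2 -1.31, SE 0.20, edgeR adjusted p = 0.0431). Among 18 other cytokine genes tested, TNFSF8, the CD30 ligand, was lower in ΔOGT-ISS (log2 -3.24, SE 0.48, edgeR adjusted p = 0.0416), as was IL16, a CD4-binding chemoattractant (-1.02, SE 0.16, 0.0481). TNFSF8 had 21 counts in ΔOGT-ISS against 135 in WT at 48 h and 9 against 107 at 24 h.

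Between the times, TNF rose, and of 8 TNF response genes tested 0 rose and 7 fell, against 15.0% and 10.9% of all genes. Their median was -1.68, against 0.07 over all genes, and the 8th gene, TRAF1, was at 0.09 (edgeR adjusted p = 0.746). CXCL8, a neutrophil chemokine, went from 158 and 338 counts (ΔOGT-ISS, WT) at 48 h to 3 and 1 at 24 h. TNFAIP3, which restrains NF-kB, fell by 3.30 log2 units (SE 0.37), BIRC3, an inhibitor of apoptosis, by 2.93 (SE 0.17) and NFKBIA, the NF-kB inhibitor, by 2.22 (SE 0.22). With the offsets for GC content and length 7 of 8 were again lower, with a median of -2.33, so the drop was not smaller there. Many of these genes also answer signals other than TNF.

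Of 11 IFNG response genes 2 rose and 3 fell between the times, against 15.0% and 10.9% of all genes, with a median of -0.40. GBP2, an interferon-induced GTPase, fell (log2 -1.63, SE 0.18, edgeR adjusted p = 0.00113), as did the adhesion molecule gene ICAM1 (-1.14, SE 0.16), while CIITA, the activator of MHC class II genes, rose by 1.25 (SE 0.19) and IRF1 by 1.17 (SE 0.23). By distance in centred log2 CPM over the 4 libraries, GBP2 was also the gene most like IFNG among 9649 candidates, never more than 0.07 log2 units away. GBP2 was at 399 CPM (ΔOGT-ISS) and 486 CPM (WT) at 48 h, and at 109 and 186 CPM at 24 h. CREG1 (0.16 away) and the noncoding gene MIRLET7IHG (0.18) came next; with 4 libraries such likeness is a description.

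Of 14 receptor genes 4 rose and 2 fell at 24 h, against 15.0% and 10.9% of all genes. IL10RB rose by 1.29 log2 units (SE 0.40), TNFRSF14, a receptor of LTA, by 1.25 (SE 0.27) and TNFRSF1B, the TNF receptor of lymphocytes, by 0.95 (SE 0.16), and IL6ST, which encodes gp130, fell by 0.84 (SE 0.16). Of 7 response genes of IL10, LIF and OSM signalling 5 rose and 0 fell, with the largest rises in CISH (1.60, SE 0.16), PIM1 (1.33, SE 0.16) and BCL3 (1.23, SE 0.17), of which CISH and PIM1 are also known STAT5 targets of IL-2, and in IL4R (0.65, SE 0.19). With the GC and length offsets 2 of these 7 rose, CISH (1.06) and PIM1 (0.83), and 2 fell, JUNB and SBNO2. SBNO2 rose without the offsets (0.649, edgeR adjusted p = 0.0224) and fell with them (-0.728, 0.0141). BCL3 (-0.238, edgeR adjusted p = 0.516) and IL4R (0.006, 0.988) lost their calls. Of the receptors 1 rose, IL10RB (1.609), and 1 fell, CSF2RB (-0.794). TNFRSF14 (0.124, edgeR adjusted p = 0.814), TNFRSF1B (0.202, 0.645) and IL6ST (-0.323, 0.33) lost their calls with the same sign.

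Of 22 transcription factor genes 8 rose and 7 fell at 24 h, against 15.0% and 10.9% of all genes. JUN, an AP-1 subunit, fell by 2.96 log2 units (SE 0.17) and FOS, its partner, by 1.42 (SE 0.33), while TBX21, which encodes T-bet, an activator of IFNG, rose by 1.02 (SE 0.19); NFKB2 fell by 0.98 (SE 0.19). Of 10 TGFB1 response genes 5 rose and 1 fell. LDLRAD4, an inhibitor of TGF-beta signalling, rose by 1.34 (SE 0.22), ID3 by 1.29 (SE 0.31) and SKI, a SMAD corepressor, by 1.13 (SE 0.19). With the offsets 2 rose and 1 fell. Of 8 release and activation genes NRROS, which holds latent TGF-beta on the cell surface, rose by 1.22 (SE 0.17) and RHBDF2, a partner of the TNF sheddase, by 1.11 (SE 0.30). With the offsets 2 transcription factors rose and 8 fell, and 0 release genes rose and 1 fell, so the number that passed in each direction depends on the treatment of GC content. JUN, FOS and NFKB2 kept their calls, while TBX21 (0.24, edgeR adjusted p = 0.531), NRROS (0.42, 0.197) and RHBDF2 (0.07, 0.907) lost theirs with the same sign.

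Among 9 mRNA decay factors 2 rose and 2 fell, HNRNPD, an AU-rich element binder, at -1.50 (SE 0.17), ZFP36L1 at -0.91 (SE 0.16), KHSRP at 0.94 (SE 0.16) and ZFP36L2 at 0.85 (SE 0.19). Of 13 signal transducers 2 rose and 1 fell, SMAD3, which carries the TGF-beta signal, at -2.65 (SE 0.47), TRADD, the TNF receptor adaptor, at 1.27 (SE 0.30) and TYK2 at 0.88 (SE 0.18). With the offsets HNRNPD, ZFP36L1 and SMAD3 kept their calls, and KHSRP (0.23, edgeR adjusted p = 0.593), ZFP36L2 (0.47, 0.146), TRADD (0.07, 0.925) and TYK2 (-0.01, 0.985) lost theirs. Among 18 other cytokine genes 6 rose and 2 fell. Over all genes 15.0% rose and 10.9% fell, and the shares in the decay and transducer lists were not tested against these. CSF1, the macrophage growth factor, rose by 2.09 log2 units (SE 0.18), TNFSF14, the LIGHT ligand of the lymphotoxin receptor, by 2.03 (SE 0.17), IL23A fell by 2.41 (SE 0.58) and TNFSF8 by 1.93 (SE 0.46).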

How the data were processed

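RNA was depleted of ribosomal RNA and made into libraries with the CORALL kit, per the labels' protocols. Per the submitters' processing notes, the tools were HISAT2 2.2.0, SAMtools 1.15.1 and featureCounts 2.0.1 and the build was hg38, with no roles or options. The deposited counts are whole reads per gene. The deposited FPKM values equal the count divided by the transcript length and by the library's counts, up to a nearly constant factor. How molecular identifiers, strand and multi-mapped reads were treated is not given in the sources used here.

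Symbols came from the deposited table for 41013 identifiers and from a reference table for 1404, and positions and GC content from GENCODE release 29. The members and lists were chosen with earlier results of these data known. The rule for naming took every member and, from each list, up to 4 genes past the test or the 2 largest differences. SOD2 had no match in the symbols, and some genes that the rule names are not reported here. Differences were tested in R 4.3.3 with the quasi-likelihood F test of edgeR 4.0.16, TMM scaling and filterByExpr (minimum count 10, 17492 genes); the model had a line term, a time term and 1 residual degree of freedom. P-values were two-sided and Benjamini-Hochberg adjusted over all genes, threshold 0.05. SE is the log2 difference divided by the square root of F. Intervals on ratios of single libraries are exact conditional binomial, 95%, for counting error only. Alternatives used DESeq2 1.42.0, limma 3.58.1 with pseudocounts of 1 and 0.1, other scalings and filters, thinning, GC and length offsets, and leaving out each library.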

Additional observations from a re-analysis of the deposited data

Results flagged for a closer look

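For OSM the 24 h to 48 h ratio lay on opposite sides of 1, at 2.51 in WT and 0.936 in ΔOGT-ISS. TGFB1 likewise had a ratio of ΔOGT-ISS to WT of 1.01 at 48 h and 0.864 at 24 h. Neither difference was tested, since each ratio compares 2 single libraries. The OSM ratio in ΔOGT-ISS (interval 0.763 to 1.15) and the TGFB1 ratio at 48 h (0.881 to 1.16) both include 1.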

How the results depend on the processing

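No pairing beyond IL-2 time was possible, since the replicate number listed for each library runs with that time. The time term of the model already compares the lines within each IL-2 time. Between the lines the number of genes called over all genes was 81 in the edgeR test, but 154 with DESeq2 size factors, 546 without the low-count filter, 171 with a minimum mean of 5 CPM, 287 with DESeq2 and 506 with GC and length offsets. It was 0 with limma on FPKM at either pseudocount (1618 and 1543 at an unadjusted p of 0.05) and 0 without the term for time (242 unadjusted). Thinning both 24 h libraries to the smallest total gave 431 in 1 random draw and 6 to 249 in 5 others, which were added after seeing the data, with 0 members called in each. Members called between the lines were 1 (TNF) without the filter and 1 (TNF) with the offsets, and 0 in the other alternatives. Leaving out 1 library, without the term for the other factor, gave 0 to 16 genes between the lines and 1098 to 3657 between the times, where 4535 were called with all 4; members called between the times were 2 to 6.

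In those fits the line differences ran from -1.70 to 0.46 for IFNG, -2.10 to 0.48 for TNF, -1.44 to 0.26 for LTA, -1.26 to 0.17 for LTB, -0.34 to 1.19 for IL10 and -1.59 to 1.40 for TGFB1; they mix line with time. The time differences ran from -0.48 to 0.22 for IL32 and -0.038 to 1.41 for OSM. With the offsets the time difference was -0.057 for LTB and -0.13 for OSM, and without the filter it was 0.036 for IL32. Ratios that left their counting interval were those of IL32 between times in WT (0.754 with DESeq2 size factors, 0.746 with upper-quartile factors) and in ΔOGT-ISS (0.931), of LTB between times in ΔOGT-ISS (2.44, both upper-quartile), and of IL32 between lines at 48 h (0.682 with library size only). In TPM computed from the counts, IFNG ranked 4th and TGFB1 5th, the reverse of their FPKM order. Depth limits CSF2 and LIF, for which a direction was not detectable except against the limits given.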
